A study of Mus musculus with 12 samples.

Results

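Soluble lysosomal hydrolases and their cofactors were taken as a list of 38 genes for enzymes and activators of the lysosomal lumen other than cathepsins, matched by symbol to the deposited count table. All 38 were found among its 54532 genes, and all 38 were among the 15014 genes that passed the filter on low counts. The libraries were made from macrophages of mouse gliomas (tumour-associated macrophages, TAMs), after perfluoro-crown-ether (PFCE) nanoparticles carrying rhodamine, a fluorescent dye, had been given by vein. At 24 hours the tumours were taken and CD45+, CD11b+, Ly6C- cells were sorted by fluorescence into rhodamine-positive cells, which carried the label, and rhodamine-negative cells, which did not. Each of 6 mice gave 1 sort of each kind, of more than 2000 cells, so that 6 rhodamine-positive libraries were set against 6 rhodamine-negative libraries. Both groups share the genotype labelled Ntv-a_Ink4a/Arf_KO, the tumour, the particle injection and the batch label. Mice 1 to 4 were male and mice 5 and 6 female, and the labels used here give no age. Mice without particles were not analysed here, and the comparison is between cells of the same tumours that had and had not taken up label.

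Lysosomal hydrolases are made at the endoplasmic reticulum, tagged with mannose 6-phosphate in the Golgi and carried by mannose 6-phosphate receptors to the lysosome, where they work at acid pH. Each breaks a particular bond in glycolipids, glycosaminoglycans, glycogen, glycoproteins, lipids, peptides or nucleic acids, and some need a small activator protein that lifts the lipid substrate out of the membrane. Loss of a single enzyme causes a storage disease in which its substrate accumulates. Macrophages, which digest what they engulf, are rich in these enzymes, and many of the genes carry binding sites for TFEB and its relatives, transcription factors of lysosome formation.

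RNA for these proteins was more abundant in the rhodamine-positive sorts. Of the 38 genes, 30 (78.9%) were higher and 1, Gm2a, was lower in rhodamine-positive than in rhodamine-negative sorts, at an adjusted p under 0.05 in edgeR's quasi-likelihood test with the mouse as a block and Benjamini-Hochberg adjustment over all genes tested. Among all 15014 genes, 13.0% were higher and 13.2% lower by the same rule, 26.2% in either direction. The 7 genes that did not pass were Ids, Sgsh, Man2b1, Pla2g15, Plbd2, Prcp and Acp5. The median log2 fold change, rhodamine-positive minus rhodamine-negative, was 0.54 for the 38 genes and -0.020 for all genes. The 38 values ran from -0.60 to 0.95, so no member changed by as much as 1 on the log2 scale.

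**Figure D1:**
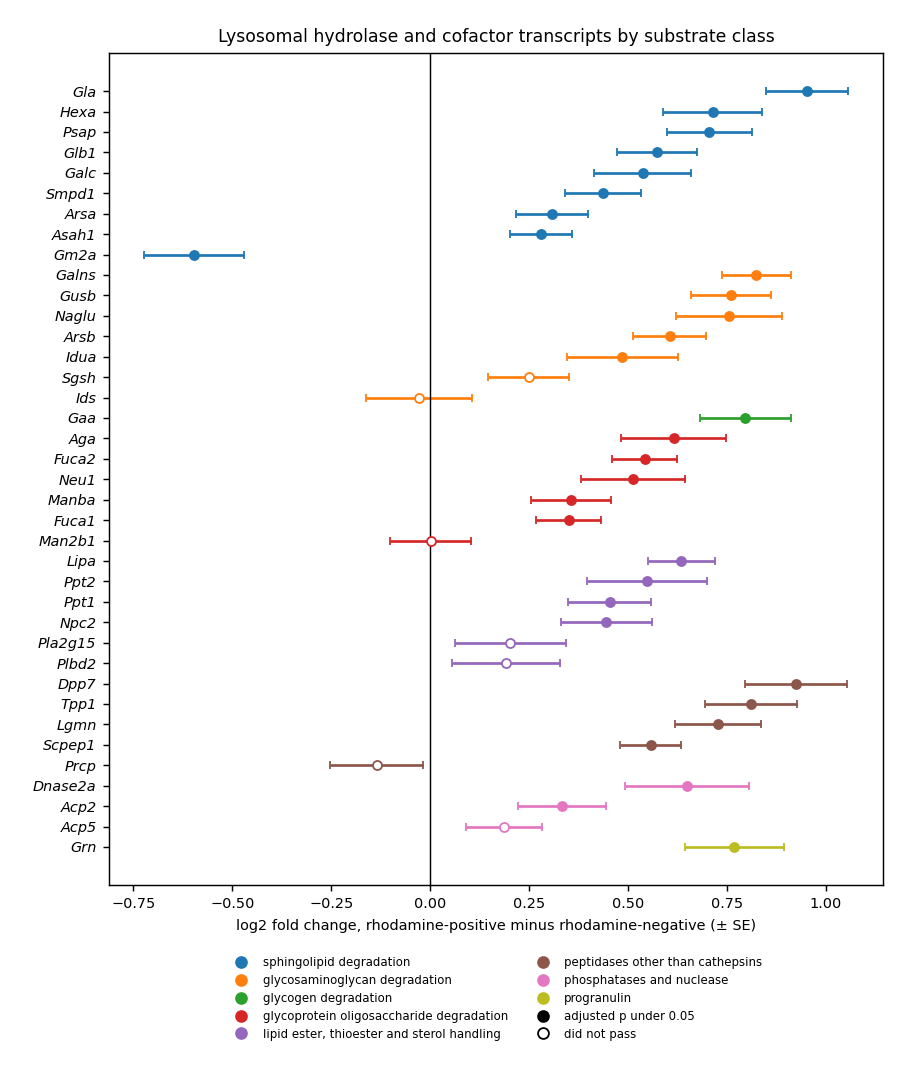
Log2 fold change (rhodamine-positive minus rhodamine-negative) of each of the 38 genes, grouped by substrate class, with bars of 1 standard error on each side from edgeR's quasi-likelihood fit and open symbols for genes that did not pass. Values run from -0.60 for Gm2a, the single member that was lower, to 0.95 for Gla.

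The direction held within animals as well as over groups. Counted mouse by mouse, 28 members (73.7%) were higher in the rhodamine-positive sort of all 6 mice, against 14.2% of all genes. For 17 members (44.7%) every rhodamine-positive library lay above every rhodamine-negative library, against 4.14% of all genes. These 17 were Gla, Glb1, Hexa, Arsa, Gusb, Naglu, Galns, Gaa, Fuca1, Fuca2, Aga, Lipa, Tpp1, Lgmn, Dpp7, Scpep1 and Grn. The median difference over the 38 genes was 0.53, 0.42, 0.52, 0.47, 0.97 and 0.33 in mice 1 to 6 on the log2 scale of CPM, a gene's counts scaled to a common library total. It was positive in each mouse and highest in mouse 5, with 30 to 37 of the 38 genes higher in a given animal.

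**Figure D2:**
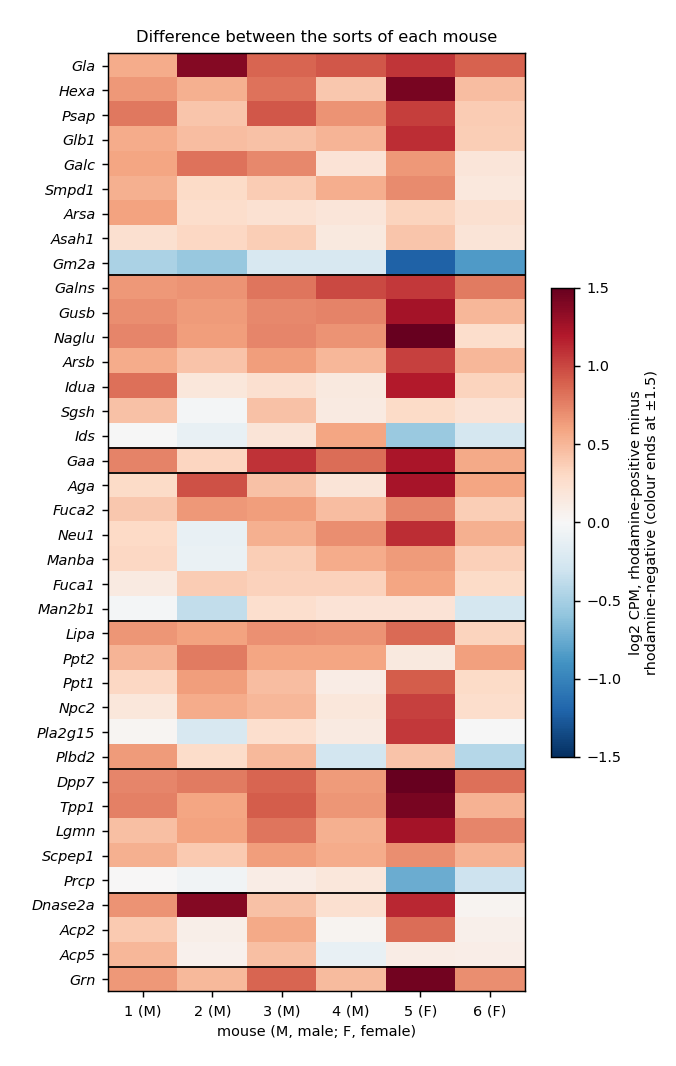
Difference in log2 CPM between the rhodamine-positive and the rhodamine-negative sort of each mouse, for each of the 38 genes by class, as colour from blue (lower) to red (higher). Mouse 5 has the highest median over members, 0.97, and mouse 6 the lowest, 0.33.

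Summed over the 38 genes, the rhodamine-positive libraries held 28570 to 31644 CPM and the rhodamine-negative libraries 14314 to 23146 CPM, so the groups did not overlap. CPM values here carry the TMM scaling of edgeR (trimmed mean of M values), which sets the average gene equal between libraries. The members took 2.71% to 2.98% of all counts in rhodamine-positive libraries and 1.63% to 2.40% in rhodamine-negative libraries. The rhodamine-negative library of mouse 5 was the lowest, and the other rhodamine-negative libraries summed to 19205 CPM or more. Without mouse 5, 28 members were higher and 1 lower, with a median of 0.49. With library size as the sole scaling, all genes shifted to a median of -0.18, with 852 higher and 3142 lower against 1955 and 1986 with TMM. Under that scaling 21 members were higher and 1 lower, against 5.67% of all genes called higher. Without the mouse as a block 25 members were higher, against 8.46% of all genes, and at an adjusted p under 0.01 with the block 21 were, against 6.05%.

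Total counts per library ran from 13073189 to 17379314 in rhodamine-positive sorts and from 13421387 to 16167832 in rhodamine-negative sorts, and each member other than Ppt2 had at least 203 counts in every library. The gate genes and macrophage markers were present throughout: 10 such genes summed to 13291 to 15221 CPM in rhodamine-positive and 6715.8 to 12837 CPM in rhodamine-negative libraries. Of these 10, 5 rose (Adgre1, Csf1r, Cd68, C1qa and Aif1) and 1, Ptprc, which encodes CD45, fell. For this and the marker lists that follow, the shares among all genes were 13.0% higher and 13.2% lower. Dendritic cell markers moved the other way, with 8 of 9 lower and a summed level of 389 to 660.5 CPM in rhodamine-positive against 859 to 1818 CPM in rhodamine-negative libraries. A large part of the rhodamine-positive sum was Siglech, the 1 not called, which averaged 301 CPM in rhodamine-positive and 354 CPM in rhodamine-negative libraries. Monocyte markers (3 of 6 lower) summed to 45.5 to 112 CPM against 235 to 593 CPM, and T and NK cell markers (1 tested of 7, lower) to 2.46 to 10.2 CPM against 40.1 to 86.8 CPM. Nearly all of the T and NK sum was Klrd1, the 1 tested, which averaged 6.05 CPM in rhodamine-positive and 49.5 CPM in rhodamine-negative libraries. The other T and NK markers averaged at most 1.22 CPM in either sort. The B and plasma cell list (2 of 5 tested lower) held 21.8 to 40.9 CPM against 30.5 to 78.6 CPM, and the basophil and mast cell list (3 of 3 tested lower) 0 to 20.9 CPM against 6.11 to 395 CPM. Glioma and oligodendrocyte markers (4 of 7 tested lower) held 37.1 to 80.3 CPM against 76.9 to 117 CPM, and neutrophil markers (1 higher of 2 tested) 252 to 417 CPM against 200.5 to 386 CPM. Nearly all of the neutrophil sum was Csf3r, which was not called and averaged 318 CPM in rhodamine-positive and 289 CPM in rhodamine-negative libraries. Mmp8, the 1 called higher, averaged 3.35 and 1.17 CPM, and the other neutrophil markers at most 1.62 CPM in either sort. The neutrophil marker Ly6g and the NK cell marker Ncr1 were at 0 in all 6 rhodamine-positive libraries. In rhodamine-negative libraries both had a median of 0 CPM, with highest values of 0.06 and 0.66 CPM, and neither was tested. Jchain, a plasma cell gene, had a median of 0 CPM in rhodamine-positive and 18.2 CPM in rhodamine-negative libraries. The rhodamine-negative library of mouse 5 had the lowest macrophage sum and the highest dendritic, monocyte, T and NK, and basophil sums. In bulk RNA, fewer cells of a type and less RNA per cell cannot be told apart, and the part of these markers in the results below was not tested.

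Start sites of 34 of the 38 genes were found in RefSeq's promoter table for mouse build GRCm38.p6, and windows of 250 bases before to 50 bases after each start were searched. The motif was CACGTG, the core of the TFEB site, which reads the same on both strands. It was present for 8 of 34 members (23.5%) and for 8.09% of the 27025 genes in the table. Those 27025 genes were not limited to the genes tested here. The longer TCACGTGA, which contains CACGTG, was in 2 of 34 (5.88%, Gla and Dpp7) against 1.12% of genes. The 8 genes with CACGTG were Gla, Dpp7, Glb1, Naglu, Gaa, Sgsh, Lgmn and Arsa, of which Sgsh alone was not called. By call, CACGTG was in 7 of 27 members that rose (25.9%), 0 of 1 that fell and 1 of 6 not called (16.7%). The difference between these shares was not tested. In all 8 genes the match lies before the RefSeq start. Stretches of 60 bases are shown for the 4 genes that rose and whose stretch also lies wholly upstream of the gene in the GENCODE annotation. The longest match is in capitals, and each stretch is read on the gene's own strand. They come from chrX:134601167-134601226 on the minus strand for Gla, chr2:25356373-25356432 on the minus strand for Dpp7, chr9:114401003-114401062 on the plus strand for Glb1 and chr11:119267796-119267855 on the plus strand for Gaa.
Gla: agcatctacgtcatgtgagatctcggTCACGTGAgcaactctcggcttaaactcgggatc
Dpp7: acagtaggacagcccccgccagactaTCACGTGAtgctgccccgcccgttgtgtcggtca
Glb1: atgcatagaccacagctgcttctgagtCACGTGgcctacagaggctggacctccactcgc
Gaa: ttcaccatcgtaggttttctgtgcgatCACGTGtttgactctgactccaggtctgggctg
The core begins 194 bases before the start of Gla in the stretch shown, where a second core lies further upstream, 73 bases before that of Dpp7, 48 before that of Glb1 and 140 before that of Gaa. A match of letters is a description and not evidence of binding, and a window without one says nothing about the factor. Asah1, Galns, Aga and Plbd2 were not among the windows used.

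Sphingolipid degradation was the class with the widest range of values. Of 9 genes, 8 rose and 1 fell, with a median log2 fold change of 0.54. Gla encodes alpha-galactosidase A, which removes the terminal galactose of globotriaosylceramide and is deficient in Fabry disease (build mm10, chrX:134588149-134601125, ENSMUSG00000031266). Its level was 105, 121 and 139 CPM (lowest, median, highest) in rhodamine-positive and 46.4, 60.3 and 94.1 CPM in rhodamine-negative libraries. The groups did not overlap, and the log2 fold change of 0.95 ± 0.10 (SE; edgeR adjusted p = 9.08e-05) was the highest among the 38 genes.

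Hexa and Gm2a act in the same reaction and moved in opposite directions. Hexa encodes the alpha subunit of beta-hexosaminidase A, which cleaves GM2 ganglioside, and Gm2a encodes the GM2 activator that presents the lipid to it. Hexa had 1495, 1571 and 1993 CPM in rhodamine-positive and 565, 1053 and 1372 CPM in rhodamine-negative libraries, with a log2 fold change of 0.71 ± 0.13 (edgeR adjusted p = 0.00189). The lowest rhodamine-positive value lay above the highest rhodamine-negative value. Gm2a (chr11:55098115-55113029, ENSMUSG00000000594) had 545, 625 and 804 CPM in rhodamine-positive and 736, 983 and 1265 CPM in rhodamine-negative libraries. It averaged 652 ± 103 CPM in rhodamine-positive and 991 ± 185 CPM in rhodamine-negative libraries (SD, n = 6 each), a log2 fold change of -0.60 ± 0.13 (edgeR adjusted p = 0.00532). The ranges overlapped between 736 and 804 CPM, but within each of the 6 mice the rhodamine-positive sort was lower, by 0.24 to 1.22 on the log2 scale. In male mice alone the value was -0.39, and without mouse 5 it was -0.47, both still past the threshold.

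The ratio of Gm2a to Hexa CPM, a quantity chosen after the values were seen and given with no test, was 0.392, 0.375, 0.460, 0.404, 0.360 and 0.378 in the rhodamine-positive libraries of mice 1 to 6. In the rhodamine-negative libraries of the same mice it was 0.857, 0.808, 0.955, 0.634, 2.24 and 0.935. The rhodamine-positive libraries lay within a narrow band below all rhodamine-negative ones, and the rhodamine-negative library of mouse 5 was far above the others. Among exons of Hexa, 12.8% of the length overlaps Tmem202 on the opposite strand, a gene with 759 to 2428 counts per library. The strand setting of the counting is not given in the sources used here, so the reads of such pairs cannot be assigned with certainty.

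**Figure D3:**
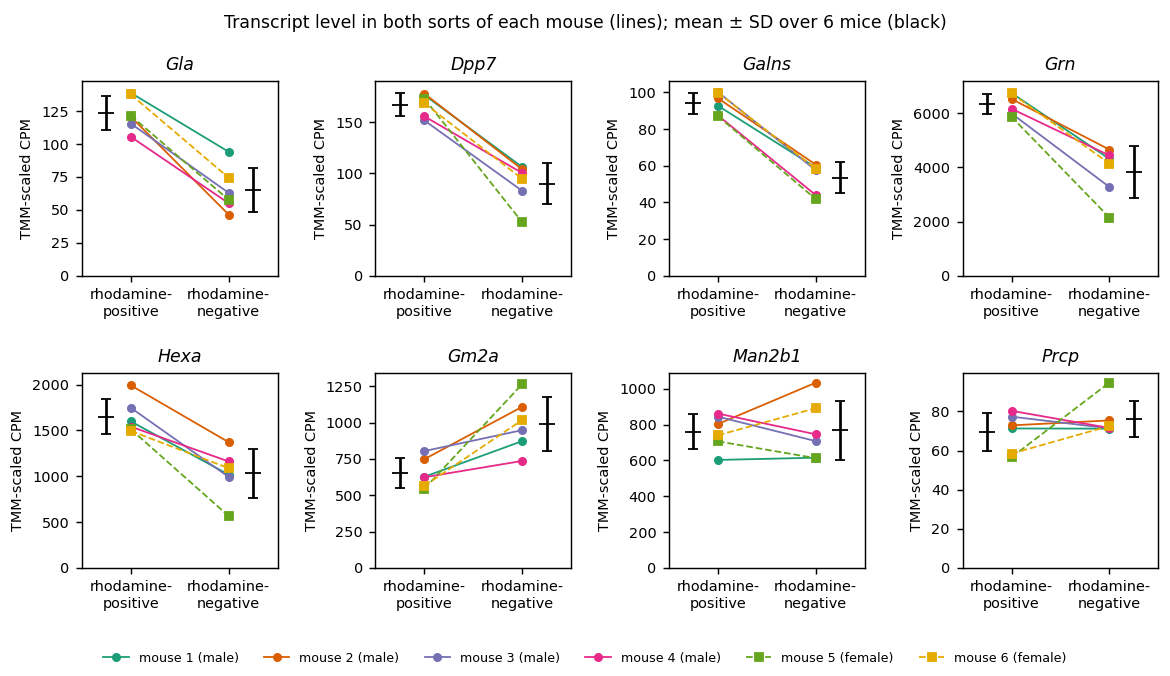
TMM-scaled CPM in the rhodamine-positive (left) and rhodamine-negative (right) sort of each mouse for selected members, with lines joining the sorts of a mouse and black bars for the mean ± SD (n = 6 each). The lines fall from left to right for the members that rose, such as Gla, and climb in each of 6 mice for Gm2a.

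Psap encodes prosaposin, the precursor of the saposins that activate several sphingolipid hydrolases. It was among the most abundant members, with 5959.9, 6678 and 8174 CPM in rhodamine-positive and 3121, 4071 and 6256 CPM in rhodamine-negative libraries. The groups overlapped at their edges, and the rhodamine-positive sort was higher in all 6 mice (log2 fold change 0.71 ± 0.11, edgeR adjusted p = 0.000761). The precursor of the saposins thus rose in these sorts and the GM2 activator fell.

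Glb1, the beta-galactosidase of GM1 ganglioside, had 199.5, 230.1 and 255 CPM in rhodamine-positive and 101, 159 and 188 CPM in rhodamine-negative libraries (log2 fold change 0.57 ± 0.10, edgeR adjusted p = 0.00195). Its groups did not overlap. Galc, the galactosylceramidase deficient in Krabbe disease, had the lowest level of all members per kilobase of exon, with 16.1, 26.6 and 31.5 CPM against 14.1, 17.2 and 20.6 CPM in rhodamine-negative libraries. Its groups overlapped, while the value was higher in all 6 mice (0.54 ± 0.12, edgeR adjusted p = 0.00787). Smpd1, acid sphingomyelinase, had 50.6, 56.8 and 61.1 CPM against 34.0, 40.5 and 51.3 CPM in rhodamine-negative libraries (0.44 ± 0.10, edgeR adjusted p = 0.00664).

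The smallest rises of the class were in Arsa, the arylsulfatase of sulfatide, and Asah1, acid ceramidase. Arsa had 43.4, 46.3 and 53.7 CPM in rhodamine-positive and 35.1, 38.7 and 42.2 CPM in rhodamine-negative libraries, groups that did not overlap (0.31 ± 0.09, edgeR adjusted p = 0.0288). Without mouse 1, 2, 3 or 6 it missed the threshold, with edgeR adjusted p-values of 0.0871, 0.0502, 0.0657 and 0.0596. Asah1 had 544, 654 and 726 CPM against 473, 543 and 614 CPM in rhodamine-negative libraries (0.28 ± 0.08, edgeR adjusted p = 0.0214). It missed the threshold without mouse 2 or 3 (edgeR adjusted p = 0.0529 and 0.0836). Library size as the sole scaling gave 0.15 for Arsa and 0.12 for Asah1, neither past the threshold.

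Of the 7 genes for glycosaminoglycan degradation, 5 rose and 2 did not pass the test, with a median log2 fold change of 0.61. Galns, the sulfatase that acts on keratan sulfate and chondroitin 6-sulfate, had the lowest adjusted p of the 38 genes. Its level was 87.0, 94.8 and 100.1 CPM in rhodamine-positive and 41.8, 57.9 and 60.6 CPM in rhodamine-negative libraries, with a wide gap between the groups (0.82 ± 0.09, edgeR adjusted p = 7.62e-05). Gusb, beta-glucuronidase, had 1041, 1268 and 1424 CPM against 504, 770.0 and 911 CPM in rhodamine-negative libraries (0.76 ± 0.10, edgeR adjusted p = 0.00035), again without overlap.

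Naglu, the N-acetylglucosaminidase of heparan sulfate, had 329.8, 398 and 437 CPM in rhodamine-positive and 140.4, 244 and 284 CPM in rhodamine-negative libraries (0.76 ± 0.13, edgeR adjusted p = 0.00189). Its groups did not overlap. Arsb, the sulfatase of dermatan sulfate, ran from 169.7 to 311 CPM in rhodamine-positive and from 93.8 to 232 CPM in rhodamine-negative libraries, with 0.61 ± 0.09 (edgeR adjusted p = 0.000785). Mice 2 and 4 were highest in both sorts, so that the groups overlapped, and without the mouse as a block its adjusted p was 0.0885. Of its exon length, 32.3% overlaps Gm26527 on the opposite strand, a gene with 651 to 2970 counts per library.

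Idua, the iduronidase of heparan and dermatan sulfate, had 45.0, 60.4 and 71.2 CPM in rhodamine-positive and 31.1, 39.6 and 51.0 CPM in rhodamine-negative libraries (0.49 ± 0.14, edgeR adjusted p = 0.0248), and missed the threshold without mouse 1 (adjusted p = 0.0782). Ids and Sgsh, which also act on heparan sulfate, were not called. Ids, the iduronate sulfatase, had 29.2, 44.0 and 53.4 CPM in rhodamine-positive and 33.7, 36.6 and 65.6 CPM in rhodamine-negative libraries, with -0.03 ± 0.13 (edgeR adjusted p = 0.898) and a rise in 2 of 6 mice. Sgsh, the sulfamidase, had 26.0, 31.7 and 39.0 CPM against 23.7, 25.6 and 32.4 CPM in rhodamine-negative libraries, with 0.25 ± 0.10 (edgeR adjusted p = 0.0944). Its value was positive in 5 of 6 mice, and 21.6% of its exon length overlaps Card14, a gene with 40 to 98 counts.

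Gaa, acid alpha-glucosidase, degrades glycogen in the lysosome and is deficient in Pompe disease. It had 340.2, 386 and 443 CPM in rhodamine-positive and 159, 206 and 327 CPM in rhodamine-negative libraries. All rhodamine-positive libraries lay above all rhodamine-negative ones, with a log2 fold change of 0.80 ± 0.11 (edgeR adjusted p = 0.000543).

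Of 6 genes that trim glycoprotein oligosaccharides, 5 rose and 1 did not pass, with a median of 0.43. The fucosidases differed in size of change: Fuca2 had 299.7, 344 and 378 CPM in rhodamine-positive and 183, 238 and 269.7 CPM in rhodamine-negative libraries (0.54 ± 0.08, edgeR adjusted p = 0.000727). Fuca1 had 249, 282 and 304 CPM against 165, 233 and 248 CPM in rhodamine-negative libraries (0.35 ± 0.08, edgeR adjusted p = 0.0087). The groups did not overlap for either, although the highest rhodamine-negative value of Fuca1 came close to its lowest rhodamine-positive value. Aga, which splits the bond between sugar and asparagine, had 70.3, 72.4 and 94.9 CPM against 29.8, 51.6 and 66.8 CPM in rhodamine-negative libraries (0.62 ± 0.13, edgeR adjusted p = 0.00596). Its groups did not overlap either.

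Neu1, a sialidase, had 139.9, 169 and 215 CPM in rhodamine-positive and 87.1, 120.4 and 151 CPM in rhodamine-negative libraries (0.51 ± 0.13, edgeR adjusted p = 0.014), and was higher in 5 of 6 mice. Manba, the beta-mannosidase, had 68.9, 79.0 and 98.2 CPM against 53.5, 60.9 and 85.1 CPM in rhodamine-negative libraries (0.36 ± 0.10, edgeR adjusted p = 0.0242). It missed the threshold without mouse 3, 4, 5 or 6 (edgeR adjusted p = 0.0705, 0.0539, 0.0505 and 0.0616). Man2b1, the alpha-mannosidase, had 602, 772 and 862 CPM against 612, 727 and 1034 CPM in rhodamine-negative libraries, a difference of 0.00 ± 0.10 (edgeR adjusted p = 0.994) that was positive in 3 of 6 mice. With library size as the sole scaling, and with male mice alone, 2 genes of this class were called in place of 5.

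Of 6 genes for lipid esters, thioesters and sterols, 4 rose, with a median of 0.45. Lipa, lysosomal acid lipase, which hydrolyses cholesteryl esters and triglycerides, had 288, 384 and 442 CPM in rhodamine-positive and 188, 241 and 284 CPM in rhodamine-negative libraries. Its groups did not overlap, and its log2 fold change was 0.63 ± 0.08 (edgeR adjusted p = 0.000347). Npc2, which hands the freed cholesterol on to the membrane protein NPC1, had 959, 1111 and 1214 CPM against 471, 892 and 1044 CPM in rhodamine-negative libraries (0.45 ± 0.11, edgeR adjusted p = 0.015). Its groups overlapped, and it missed the threshold without mouse 3 (adjusted p = 0.0512) and without the block (adjusted p = 0.0834).

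Ppt1 encodes a palmitoyl-protein thioesterase, which removes fatty acids from proteins, and Ppt2 encodes a related thioesterase. Ppt1 had 539, 644 and 740.2 CPM in rhodamine-positive and 336, 477 and 574 CPM in rhodamine-negative libraries (0.45 ± 0.11, edgeR adjusted p = 0.00856). Ppt2 was the least abundant member by CPM, with 6.86, 10.5 and 11.3 CPM against 4.65, 6.73 and 7.46 CPM in rhodamine-negative libraries (0.55 ± 0.15, edgeR adjusted p = 0.0204). Of its exon length, 36.6% overlaps Gm20460 on the same strand, a gene with 0 counts in every library. How reads in that stretch were counted is not given in the sources used here, so the level of Ppt2 is uncertain. Ppt2 was higher in all 6 mice but missed the threshold without mouse 2, 3 or 6 (edgeR adjusted p = 0.0534, 0.0608 and 0.0545). Without mouse 3, 2 genes of the class were called in place of 4.

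The phospholipases were not called. Pla2g15, the lysosomal phospholipase A2, had 279.8, 299 and 321 CPM in rhodamine-positive and 148, 272 and 369 CPM in rhodamine-negative libraries (0.20 ± 0.14, edgeR adjusted p = 0.311). The rhodamine-negative values lay on both sides of the rhodamine-positive band. Mouse 5 differed by 1.07 on the log2 scale and the other mice by -0.24 to 0.25, and without mouse 5 the log2 fold change was 0.042. Plbd2, a phospholipase B-like protein, had 98.1, 198 and 294 CPM against 132, 157 and 212 CPM in rhodamine-negative libraries (0.19 ± 0.14, edgeR adjusted p = 0.329). It was one of the most variable members between animals, with a coefficient of variation of 36.2% in rhodamine-positive and 22.3% in rhodamine-negative libraries.

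Of the 5 peptidases, 4 rose and all 4 had groups without overlap, with a class median of 0.73. Dpp7, a dipeptidyl peptidase, had 152, 171 and 178 CPM in rhodamine-positive and 52.2, 97.5 and 106 CPM in rhodamine-negative libraries (0.92 ± 0.13, edgeR adjusted p = 0.000466). Tpp1, the tripeptidyl peptidase deficient in a childhood form of neuronal ceroid lipofuscinosis, had 679, 848 and 916 CPM against 316, 497 and 561 CPM in rhodamine-negative libraries (0.81 ± 0.12, edgeR adjusted p = 0.00051). For both, the lowest rhodamine-positive library lay above the highest rhodamine-negative one.

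Lgmn encodes legumain, an asparaginyl endopeptidase that also processes cathepsins and antigens. It had 4309.5, 4466 and 4997 CPM in rhodamine-positive and 1918, 2935 and 3236 CPM in rhodamine-negative libraries (0.73 ± 0.11, edgeR adjusted p = 0.000713). Its rhodamine-positive libraries were the most alike of any member, with a coefficient of variation of 5.55%, against 17.8% in rhodamine-negative libraries. Scpep1, a serine carboxypeptidase, had 324, 353 and 447 CPM against 214, 241 and 313 CPM in rhodamine-negative libraries (0.56 ± 0.08, edgeR adjusted p = 0.000419). Prcp, a prolylcarboxypeptidase, was not called, with 56.5, 72.1 and 80.3 CPM against 71.2, 72.0 and 94.8 CPM in rhodamine-negative libraries (-0.14 ± 0.12, edgeR adjusted p = 0.426). It was higher in 3 of 6 mice.

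Of the phosphatases and the nuclease, 2 of 3 rose, with a median of 0.33. Dnase2a, the acid nuclease that digests engulfed DNA, had 136, 307 and 337 CPM in rhodamine-positive and 125, 181 and 221 CPM in rhodamine-negative libraries (0.65 ± 0.16, edgeR adjusted p = 0.0104). One rhodamine-positive library, that of mouse 6, lay among the rhodamine-negative values, and 30.0% of its exon length overlaps Mast1, a gene with 67 to 158 counts. Acp2, an acid phosphatase, had 177, 195 and 222 CPM against 112, 159 and 184 CPM in rhodamine-negative libraries (0.33 ± 0.11, edgeR adjusted p = 0.046). It missed the threshold without mouse 1, 3, 5 or 6 (edgeR adjusted p = 0.101, 0.147, 0.0932 and 0.0542) and without the block (0.0690). Acp5, the tartrate-resistant phosphatase of macrophages and osteoclasts, was not called (0.19 ± 0.10, edgeR adjusted p = 0.171). It ranged from 92.8 to 291 CPM in rhodamine-positive and from 100.2 to 213 CPM in rhodamine-negative libraries, with coefficients of variation of 44.5% and 29.8%, and was higher in 5 of 6 mice.

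Grn encodes progranulin, which is split in the lysosome into granulins that bear on hydrolase activity, and whose loss causes a lysosomal storage disease. It had 5867, 6344 and 6744 CPM in rhodamine-positive and 2151, 4228 and 4656 CPM in rhodamine-negative libraries. The groups did not overlap (0.77 ± 0.13, edgeR adjusted p = 0.00119), and mouse 5 had both the lowest rhodamine-positive and the lowest rhodamine-negative value. Its coefficient of variation was 6.01% in rhodamine-positive and 24.8% in rhodamine-negative libraries.

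Per kilobase of exon, the members differed far more from each other than between sorts. In rhodamine-positive libraries the mean level was 2553 CPM per kb for Psap, 1947 for Lgmn, 1824 for Grn and 826 for Hexa, followed by 275 for Gusb. At the other end stood Ppt2 with 3.67 and Galc with 1.72 CPM per kb. In rhodamine-negative libraries the 4 highest came in the same order, with means of 1595, 1191, 1102 and 517 CPM per kb. Lgmn and Grn lay within each other's spread there (1191 ± 212 and 1102 ± 273 CPM per kb, SD, n = 6). The order depends on the length used. By the longest transcript, Grn came before Psap and Lgmn in rhodamine-positive libraries (2708, 2637 and 2273 CPM per kb), Psap stayed ahead of Grn in rhodamine-negative libraries (1647 and 1637 CPM per kb), and Ppt2 stood below Galc in both. Gm2a ranked 11 in rhodamine-positive and 5 in rhodamine-negative libraries, at 158 ± 24.9 and 240.2 ± 44.8 CPM per kb.

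**Figure D4:**
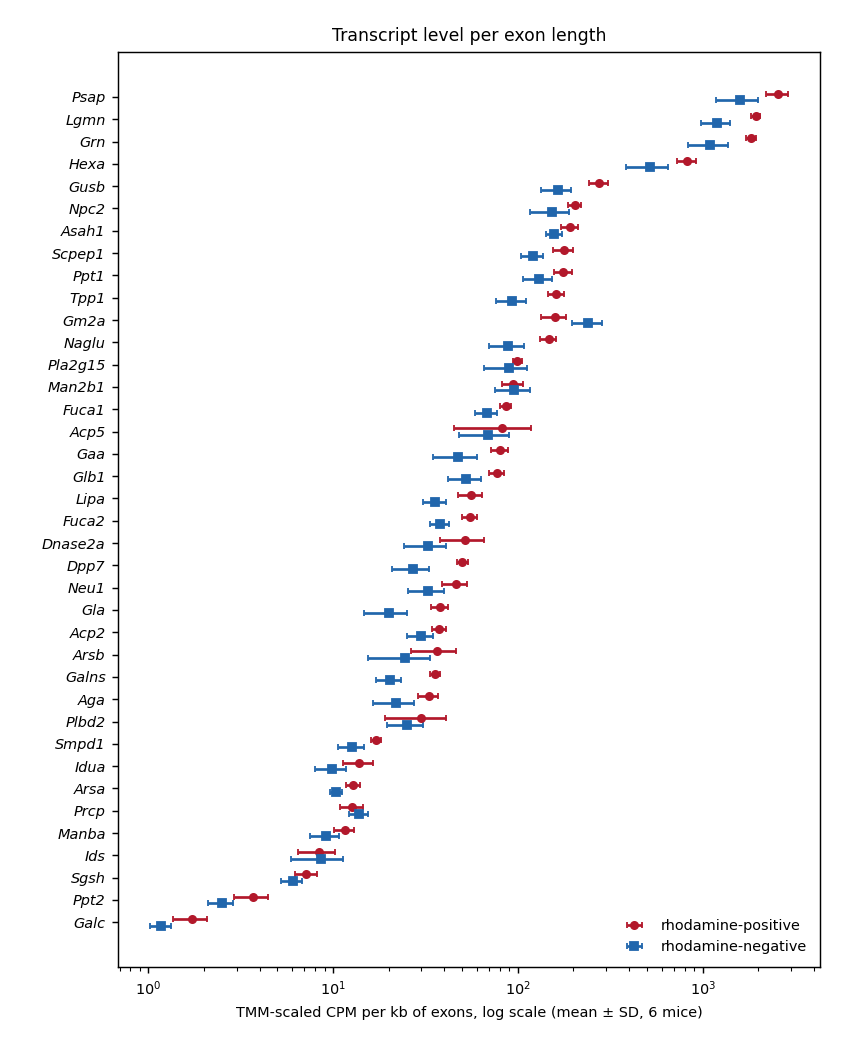
Mean level of each member per kilobase of exon in rhodamine-positive and rhodamine-negative libraries on a log axis, ordered by the rhodamine-positive mean, with bars of 1 SD (n = 6 each). Psap, Lgmn, Grn and Hexa lead in both sorts, and Gm2a stands higher in the rhodamine-negative sorts.

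A comparison of the change between sexes rested on 4 male and 2 female mice. In edgeR's interaction test no member passed at an adjusted p under 0.05 (0 of 38, lowest adjusted p = 0.562), as no gene did among all tested (0.00%). At an unadjusted p under 0.05 there were 4 of the 38 members, Gm2a, Prcp, Ids and Dpp7, against 7.73% of all genes. The share of members was thus near the background. The mean difference of Gm2a was -1.03 in female and -0.38 in male mice on the log2 scale, and that of Prcp was -0.53 and 0.06. The female means rest on mice 5 and 6 alone, with -1.22 and -0.85 for Gm2a and -0.74 and -0.31 for Prcp.

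Of 20 other soluble lysosomal hydrolases and related proteins, 7 rose, among them Man2b2, Arsg, Hpse and Creg1, and 3 fell, with a median of 0.24. Among all genes 13.0% rose and 13.2% fell, so the share of this list that fell was near the background. Hpse, the endoglucuronidase heparanase, had the largest rise, with 38.6, 70.8 and 86.7 CPM in rhodamine-positive and 18.0, 29.1 and 64.2 CPM in rhodamine-negative libraries (0.98 ± 0.13, edgeR adjusted p = 0.000395). Plbd1, another phospholipase B-like protein, had the largest fall, with 106, 135 and 182 CPM against 358, 565 and 1161 CPM in rhodamine-negative libraries (-2.08 ± 0.16, edgeR adjusted p = 8.09e-06). Naaa (-0.60 ± 0.08) and Smpdl3a (-0.50 ± 0.15) also fell. Without the block 1 gene of this list was called lower in place of 3, and with library size as the sole scaling the median was 0.082. Rnaset2a and Rnaset2b are near-identical copies whose reads may be split between them, and neither was called.

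Of 9 genes that tag, activate or deliver the enzymes, 6 rose (66.7%, against 13.0% of all genes) and 0 fell, with a median of 0.49. Those that rose were Gnptg, a subunit of the phosphotransferase that makes the mannose 6-phosphate tag (0.55), Nagpa, which uncovers the tag (0.47), the mannose 6-phosphate receptor M6pr (0.35), Sort1 (0.49), Scarb2, a lysosomal membrane protein (0.53), and Sumf2, a relative of the sulfatase activator (0.53). M6pr had 500.1, 516 and 554 CPM in rhodamine-positive and 374, 412 and 469.6 CPM in rhodamine-negative libraries, without overlap. Gnptab, which encodes the catalytic subunits of the phosphotransferase, had 0.04 ± 0.13, Igf2r, the large receptor for the tag, 0.50 ± 0.32 and Sumf1, the sulfatase activator, 0.15 ± 0.12, and none of the 3 passed. Male mice alone, or library size as the sole scaling, left 3 of the 9 called higher, with medians of 0.37 and 0.33.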

How the data were processed

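The authors deposited raw read counts per gene for 12 libraries, as 1 table and 12 equal files, and a table of log2 normalized values for 10605 genes. Those deposited log2 values equalled log2 CPM plus a constant per library of -0.107 to 0.175. The build was mm10 and the tools were limma, edgeR, featureCounts 1.4.4, HISAT2 2.1.0, cutadapt and bcl2fastq 2.17, per the submitters' processing notes. The roles, parameters and strand setting are not given in the sources used here.

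Counts were tested as deposited with edgeR 4.0.16 in R 4.3.3. The filterByExpr filter (minimum count 10, minimum total 15) left 15014 genes with 99.8% of counts. Libraries were scaled by TMM, the quasi-likelihood test held the mouse as a block, and p-values were adjusted by Benjamini-Hochberg over all genes tested, with a threshold of 0.05. SE is the absolute log2 fold change over the square root of F. Differences per mouse used a prior count of 2. Lengths and coordinates came from GENCODE vM21, promoters from RefSeq. The procedure was checked on simulated counts.

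The sorts are paired by mouse, per the series description and the shared animal labels. As a check, deviations from group means correlated within mice 1 to 6 with r = 0.226, 0.207, 0.289, 0.0775, 0.302 and 0.450 across genes, which are not independent replicates. With another mouse the highest was 0.148 to 0.187, which exceeded the value of mouse 4. No libraries were copies (lowest chi-square per degree of freedom 17.5).

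The members and gene lists were chosen with earlier results of these data known. All 38 members are named, and of the other lists the genes with the largest rise and fall and those that a result of a member turns on. Other genes of those lists, and the ratio of Gm2a to Hexa, were named after their values were seen. Values of some genes of those lists are not reported here. Alternatives were DESeq2 1.42.0, limma 3.58.1, other scalings, filters and thresholds, a fit to males and a fit without each mouse in turn.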

Additional observations from a re-analysis of the deposited data

Results flagged for a closer look

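Within each sort, 76 groups of 6 values (38 genes in both sorts) were examined for a library far from the others, by the gap to its nearest neighbour over the whole range (Dixon's test). Chance alone gives about 5% of groups, and 7 were found. In rhodamine-positive libraries, Aga was high in mouse 2 (94.9 CPM, others 70.3 to 76.5 CPM). Lgmn was high in mouse 6 (4997 CPM, others 4309.5 to 4563 CPM), and Tpp1 was low in the same library (679 CPM, others 829 to 916 CPM). In rhodamine-negative libraries, Manba was high in mouse 2 (85.1 CPM, others 53.5 to 64.4 CPM). The rhodamine-negative library of mouse 5 gave the other three: Fuca1 was low at 165 CPM (others 220.1 to 248 CPM), Tpp1 was low at 316 CPM (others 469.6 to 561 CPM) and Prcp was high at 94.8 CPM (others 71.2 to 75.4 CPM).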

How the results depend on the processing

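Over the alternatives at the same threshold, 21 to 31 members were called higher and 1, Gm2a, lower in each. The counts higher were 25 without the mouse as a block (no replicate block), 21 with library size alone, 23 with limma on the deposited log2 table, 23 with male mice alone, 24 to 29 with a mouse left out (24 without mouse 3), and 31 with an offset for GC content and length, chosen after seeing the data. Of all genes, 8.46% were called higher without the block and 5.67% with library size alone. Shares of all genes under the other alternatives just listed are not reported here. At an adjusted p under 0.01, 21 members were higher and 1 lower, against 6.05% of all genes higher. The member median stayed between 0.38 and 0.56, and Gm2a between -0.39 and -0.76 with adjusted p-values up to 0.0240. Of the 31 called members, 21 kept call and direction under all 17 alternatives at that threshold. The other 10 lost it at least once: Acp2 under 10, Arsa and Manba under 8 each, Asah1 under 6, Idua, Npc2 and Ppt2 under 4 each, Neu1 under 3, Fuca1 under 2 and Arsb under 1. Without the block the calls of Asah1, Arsb, Manba, Npc2 and Acp2 were lost. Sgsh passed with the GC and length offset alone (0.32, adjusted p = 0.0311; 0.0311 to 0.550 over its alternatives). Among classes, the glycoprotein count of 5 became 2 with library size alone, 2 with male mice alone, 3 on the deposited log2 table and 3 at an adjusted p under 0.01. The lipid count of 4 became 2 with library size alone, 2 at an adjusted p under 0.01, and ran from 2 to 4 with a mouse left out. The phosphatase and nuclease count of 2 became 1 without the block, with library size alone, upper quartile scaling, the deposited log2 table, the stricter filter (minimum count 50) and male mice alone, 1 to 2 with a mouse left out, and 0 at an adjusted p under 0.01. Values near 0 that were not called changed sign. Ids (-0.03) was 0.16 with male mice alone, 0.052 with the GC and length offset and -0.15 to 0.088 with a mouse left out. Prcp (-0.14) was 0.050 with male mice alone. Man2b1 (0.00) was -0.015 without the block, -0.0081 with RLE size factors and with DESeq2, -0.16 with library size alone, -0.012 with upper quartile scaling, -0.031 on the deposited log2 table, -0.032 with the stricter filter and -0.049 to 0.073 with a mouse left out. The cause of these changes was not tested. All genes called higher fell to 1257 without mouse 3, against 1955. Among the members, the fewest counts behind a value were those of Ppt2 and Galc, with 78 and 203 in their lowest libraries. Some genes of the other lists had fewer, such as Igf2r with 31, Rnaset2a with 28, Rnaset2b with 21 and Mmp8 with 6.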
